A study of Arabidopsis thaliana with 9 samples.

Results

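The phenylpropanoid, lignin and flavonoid genes described here are 32 genes of *Arabidopsis thaliana*, chosen by identifier for their known place in the pathway: 8 genes of the general phenylpropanoid steps, 10 of the lignin branch, 9 flavonoid enzymes and 5 MYB regulators, out of 33341 gene rows in the deposited table. They, and the lists of other pathway genes below, were chosen with earlier results of these data known. Counts set beside the share of all genes are therefore descriptions and not evidence of enrichment. All 32 had values, and 29 passed the filter on low values that kept 19454 genes in all. The genes left out by the filter were *MYB90*, *MYB11* and *MYB111*. *MYB75* passed the filter through Col-0 alone and *UF3GT* through Col-0 and *rlp44-3*, so a lower value in the mutants through which they did not pass was partly built into the selection.

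Transcripts were measured by RNA-seq in intact seedlings, shoot and root together, of wild-type Col-0, of *exg1-1*, a T-DNA insertion mutant of *EXG1* (AT3G08030, whose name the sample labels spell EVG1), and of *rlp44-3*, a mutant of the receptor-like protein gene *RLP44* (AT3G49750). Both mutants are in the Col-0 background, each is represented by 1 allele, and how many seedlings went into a library is not known here. Plants were 7 days old. Their seeds had been stratified for 2 days (4 °C), and they grew at 20 °C with a light period of 8 h and a dark period of 16 h. Each genotype had 3 libraries, whose values summed to between 8364383 and 12971468 fitted reads.

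The comparison asked how transcript levels of these genes differed between each mutant and Col-0. The table, although named as raw counts, did not hold counts: within a genotype, the columns of the 3 libraries differed by a constant factor only. Each gene therefore has 1 value per genotype, apparently from a fitted model, so that no spread between replicates could be measured and no test or p-value is given. Values are given as scaled reads, the fitted reads per library brought to the depth of Col-0, and where 3 values stand in a row they are those of Col-0, *exg1-1* and *rlp44-3* in that order. Intervals are exact 95% counting intervals that treat the summed fitted reads as counts. They cover counting error only, and the spread between seedling samples, which would widen them, is unknown. Intervals that exclude no change were common: of the 19454 kept genes, 3740 lay below and 4229 above Col-0 in this way in *exg1-1*. In *rlp44-3* the numbers were 2475 and 2655. Genes were counted as past the threshold at 1.5-fold, equal to 0.58 on the log2 scale, which is a threshold of size and not of significance. Higher and lower, used alone, give the direction of a value.

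Phenylpropanoids start from phenylalanine. Phenylalanine ammonia-lyase (PAL), cinnamate 4-hydroxylase (C4H) and 4-coumarate:CoA ligase (4CL) turn it into coumaroyl-CoA, from which a branch through HCT and C3H1 leads to the monolignols that are polymerised into lignin in xylem walls and root barriers. A second branch starts at chalcone synthase (CHS) and leads to flavonols, which screen ultraviolet light, and to the red anthocyanins. The flavonol genes are switched on by MYB11, MYB12 and MYB111, and the late anthocyanin genes by MYB75 (PAP1) or MYB90 (PAP2) together with bHLH proteins and TTG1.

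The general and lignin steps lay within 1.5-fold of Col-0 in both mutants, apart from *CCR2* in *exg1-1*, while several flavonoid genes did not. In *exg1-1* the last steps toward anthocyanin stood out: *DFR*, *LDOX* and *UF3GT* were between 2.64-fold and 3.71-fold lower than in Col-0, and the regulator *MYB75* was 2.92-fold lower. In *rlp44-3* *MYB75* was 2.79-fold lower, *UF3GT* 1.62-fold, *LDOX* 1.49-fold and *DFR* 1.17-fold, the last with an interval that included no change. Among the 29 genes above the filter, 5 were at least 1.5-fold lower and 1 higher in *exg1-1*, where 5.3% of all kept genes were lower and 3.01% higher. In *rlp44-3*, 2 were lower and 0 higher, against 3.15% and 2.07% of all kept genes. Among kept genes with 10 to 100 fitted reads per Col-0 library, the range in which all the called genes lie, 10.2% were lower and 3.45% higher in *exg1-1*, and 5.91% were lower and 2.29% higher in *rlp44-3*. At 2-fold, 4 of the 29 were lower in *exg1-1* (1.61% of all kept genes were lower and 0.956% higher) and 1 in *rlp44-3* (1.09% lower and 0.586% higher). In seedlings sampled whole, fewer cells that use a gene and less RNA per cell cannot be told apart.

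**Figure D1:**
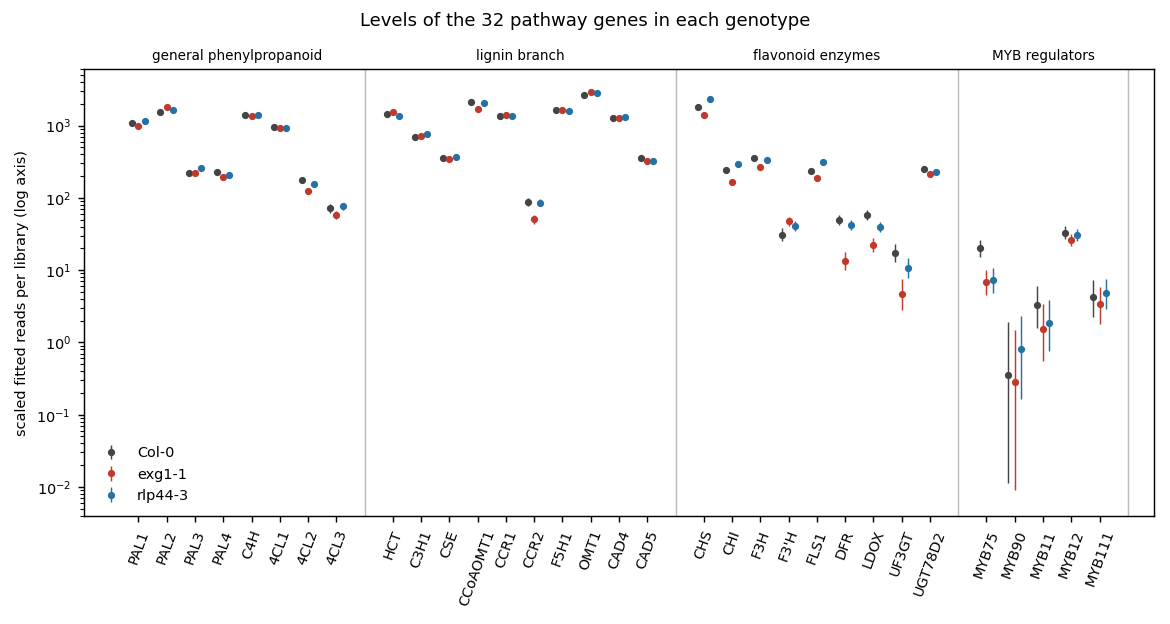
Scaled fitted reads per library (log axis) of the 32 genes in Col-0, *exg1-1* and *rlp44-3*, grouped by role. Points are the 1 value per genotype and bars the 95% counting interval. *DFR*, *LDOX* and *UF3GT* lie lowest in *exg1-1*, and *MYB75* lies lower in both mutants than in Col-0.

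Because the late anthocyanin genes and *MYB75* differed most, the 250 bases before their annotated starts are shown with that of *CHS*, the entry enzyme. They come from RefSeq's TAIR10.1 annotation and genome, in which the genes were found by identifier, while the reads had been mapped by the authors to TAIR10. Each is written 5′ to 3′ on the strand of the gene, and capitals mark the G-box CACGTG, a bHLH and bZIP core sequence that reads the same on both strands.
*CHS* (chr5:4488226-4488475, plus strand): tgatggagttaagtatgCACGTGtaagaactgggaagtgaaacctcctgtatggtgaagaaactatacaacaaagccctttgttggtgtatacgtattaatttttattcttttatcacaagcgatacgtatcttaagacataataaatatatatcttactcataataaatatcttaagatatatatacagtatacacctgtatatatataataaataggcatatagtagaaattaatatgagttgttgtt
*DFR* (chr5:17166033-17166282, minus strand): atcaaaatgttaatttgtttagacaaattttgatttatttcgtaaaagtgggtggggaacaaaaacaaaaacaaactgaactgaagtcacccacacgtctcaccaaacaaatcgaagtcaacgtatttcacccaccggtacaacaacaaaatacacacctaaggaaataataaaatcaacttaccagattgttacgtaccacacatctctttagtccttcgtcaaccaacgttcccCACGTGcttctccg
*LDOX* (chr4:12006210-12006459, minus strand): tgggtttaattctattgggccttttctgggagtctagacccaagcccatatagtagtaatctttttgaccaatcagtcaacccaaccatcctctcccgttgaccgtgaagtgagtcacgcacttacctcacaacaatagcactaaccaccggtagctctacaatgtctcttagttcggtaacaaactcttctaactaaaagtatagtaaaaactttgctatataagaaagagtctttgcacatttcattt
*UF3GT* (chr5:21938397-21938646, minus strand): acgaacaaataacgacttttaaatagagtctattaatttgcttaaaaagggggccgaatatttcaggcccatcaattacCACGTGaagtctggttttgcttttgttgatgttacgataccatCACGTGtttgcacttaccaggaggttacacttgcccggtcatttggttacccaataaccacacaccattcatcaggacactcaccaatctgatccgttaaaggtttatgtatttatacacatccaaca
*MYB75* (chr1:21235293-21235542, minus strand): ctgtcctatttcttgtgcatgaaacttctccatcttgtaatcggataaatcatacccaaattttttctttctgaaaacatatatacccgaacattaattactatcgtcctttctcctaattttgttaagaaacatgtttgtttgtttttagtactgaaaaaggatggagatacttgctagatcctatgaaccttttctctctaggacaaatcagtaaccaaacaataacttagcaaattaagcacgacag

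The G-box occurred in the windows of *CHS*, *DFR* and *UF3GT*, which holds 2 copies, and of *F3H*, but not in those of *LDOX* and *MYB75*. Over the 32 genes, 7 windows (21.9%) held it, against 6.49% of 27443 windows of the same length before protein-coding genes. The AC elements known from lignin genes, which MYB proteins bind, were searched on both strands as the letters ACCTACC, as the letters ACCAACC and as the letters ACCTAAC, and matches of different elements could overlap. At least 1 of them was found before 7 of the 32 genes (21.9%), against 6.12% of all windows. By branch, AC elements lay before 5 of 10 lignin genes and 0 of 9 flavonoid enzymes, and the G-box before 0 of 10 lignin genes and 4 of 9 flavonoid enzymes. Beyond the 32 genes this pattern did not hold throughout: AC elements lay before 5 of 16 other flavonoid enzymes and transporters and 3 of 16 other flavonoid regulators, and a G-box before 1 of 16 lignin and wall regulators. The differences were not tested. A match is a description of these letters and was not tested as a site.

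PAL commits phenylalanine to the pathway. *PAL1* (AT2G37040) had 1073, 989.9 and 1155 scaled reads. *PAL2* (AT3G53260) had 1536, 1807 and 1671, a log2 fold change of 0.23 in *exg1-1* (interval 0.18 to 0.29) and 0.12 in *rlp44-3* (0.07 to 0.18). These most abundant PAL genes thus pointed in opposite directions in *exg1-1*, by −0.12 for *PAL1* and 0.23 for *PAL2* on the log2 scale. The longest identical stretch of their exons is 80 bases, shorter than a read as sequenced, so only reads shortened by trimming could match both genes exactly. *PAL3* (AT5G04230) had 222, 221 and 262 scaled reads and *PAL4* (AT3G10340) 226, 197 and 209. *C4H* (AT2G30490), the single gene for the second step, lay within 0.05 of Col-0 on the log2 scale in both mutants, with 1406, 1354 and 1403 scaled reads.

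The 4CL genes differed by isoform. *4CL1* (AT1G51680), which with *4CL2* is known mainly for lignin, had 954, 935 and 923 scaled reads. *4CL2* (AT3G21240) had 179, 124 and 157, and its log2 fold change of −0.53 in *exg1-1* (interval −0.71 to −0.35) was the lowest of the 8 general genes and just short of 1.5-fold. *4CL3* (AT1G65060), the isoform linked to flavonoids, had 71.8, 57.7 and 76.3, a log2 fold change of −0.32 (−0.59 to −0.04) in *exg1-1* and 0.09 (−0.17 to 0.35) in *rlp44-3*. None of the 8 general genes reached 1.5-fold in either mutant. Summed, they amounted to 100.3% of the Col-0 level in *exg1-1* and 103% in *rlp44-3*.

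In the lignin branch, 9 of 10 genes lay within 1.5-fold of Col-0 in *exg1-1* and all 10 in *rlp44-3*, and the branch summed to 100.3% and 101% of Col-0. *HCT* (AT5G48930), which moves the coumaroyl group to shikimate, had 1438, 1556 and 1367 scaled reads. *C3H1* (AT2G40890), the hydroxylase that acts next, had 703, 728 and 764. *CSE* (AT1G52760), the esterase that frees caffeate, had 354, 350.2 and 374. The 3 genes that open the branch thus lay within 0.12 of Col-0 on the log2 scale.

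*CCoAOMT1* (AT4G34050), a methyltransferase of the guaiacyl route, had 2122, 1691 and 2069.7 scaled reads, a log2 fold change of −0.33 (interval −0.38 to −0.28) in *exg1-1*. *OMT1* (AT5G54160), which methylates precursors of syringyl lignin and also flavonols, had 2616, 2924 and 2865, and was the most abundant of the 29 genes per kilobase of exon in Col-0. *F5H1* (AT4G36220), the hydroxylase that opens the syringyl route, had 1642, 1670.4 and 1615. These methylation and hydroxylation genes lay on both sides of Col-0 in *exg1-1*, from −0.33 for *CCoAOMT1* to 0.16 for *OMT1* on the log2 scale.

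The cinnamoyl-CoA reductases parted. *CCR1* (AT1G15950), the reductase of developmental lignin, had 1363, 1395 and 1343 scaled reads. *CCR2* (AT1G80820), known for its induction by pathogens, had 87.3, 50.5 and 85.5. Its log2 fold change was −0.79 in *exg1-1* (interval −1.07 to −0.52) and −0.03 in *rlp44-3* (−0.27 to 0.21), so it was the 1 lignin gene of 10 past 1.5-fold in *exg1-1*, and between the mutants it was lower in *exg1-1* by 0.76 (−1.02 to −0.50). *CCR2* overlaps a gene on the other strand, and the use of strand in counting is not known here, so its value is uncertain. The same holds for *4CL1*, *C3H1*, *CCR1*, *CHS*, *F3H* and *MYB11*. The alcohol dehydrogenases *CAD4* (AT3G19450; 1261, 1282 and 1306) and *CAD5* (AT4G34230; 354, 325 and 323), which make the monolignols, differed from Col-0 by at most 0.13 on the log2 scale.

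**Figure D2:**
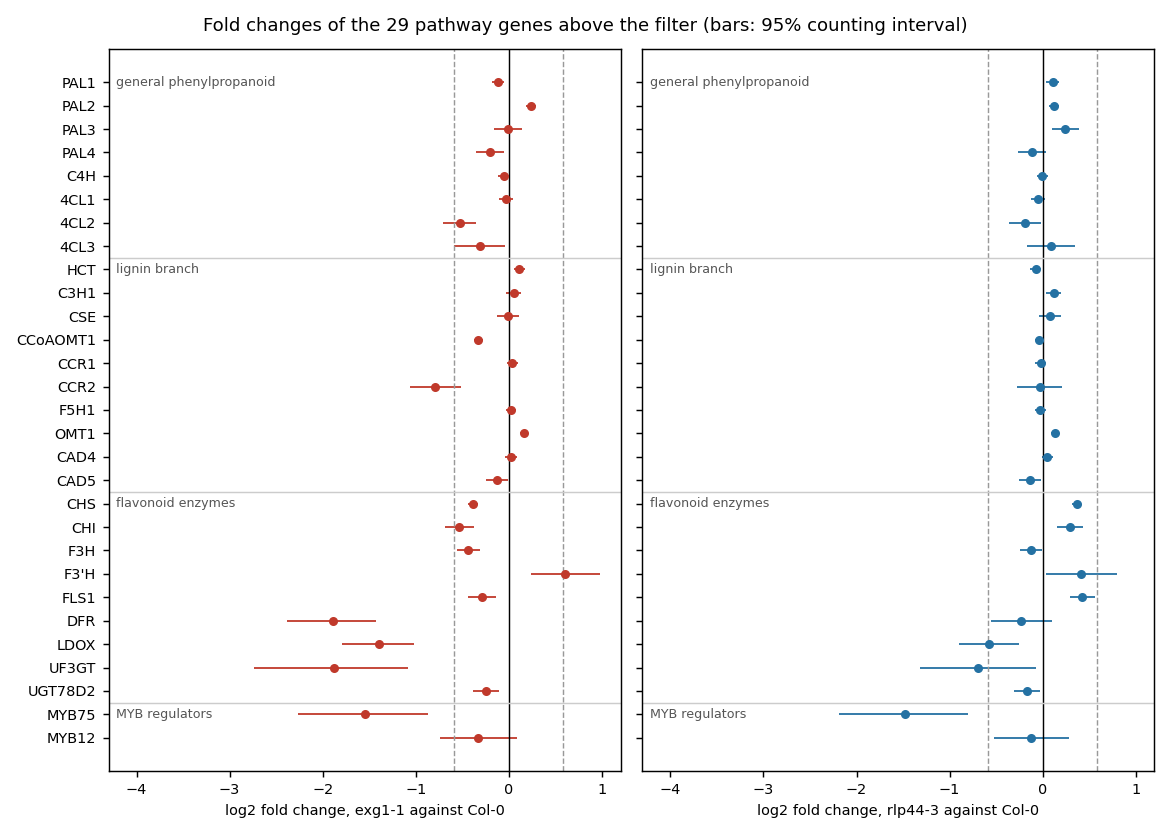
Log2 fold change against Col-0 of the 29 genes above the filter in *exg1-1* (left) and *rlp44-3* (right), with 95% counting intervals and dashed lines at 1.5-fold. The points of the general and lignin genes lie between the dashed lines apart from *CCR2* in *exg1-1*. *DFR*, *LDOX*, *UF3GT* and *MYB75* lie farthest to the left in *exg1-1*.

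*CHS* and *CHI*, the first flavonoid steps, were lower in *exg1-1* and higher in *rlp44-3* than in Col-0. *CHS* (AT5G13930) had 1840.0, 1405 and 2372 scaled reads, log2 fold changes of −0.39 (interval −0.44 to −0.33) and 0.37 (0.32 to 0.42). *CHI* (AT3G55120), chalcone isomerase, had 241, 167 and 296, log2 fold changes of −0.54 (−0.69 to −0.38) and 0.29 (0.16 to 0.43). *F3H* (AT3G51240), flavanone 3-hydroxylase, had 359.9, 266 and 329.9, and was lower in both mutants, by 0.44 and 0.13 on the log2 scale. None of these 3 genes reached 1.5-fold against Col-0, except that *CHI* in *exg1-1* just did so with scaling by library totals. Between the mutants *CHS* was lower in *exg1-1* than in *rlp44-3* by 0.76 on the log2 scale (interval −0.80 to −0.71) and *CHI* by 0.83 (−0.97 to −0.69).

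*F3'H* (AT5G07990), which adds a hydroxyl group to the B ring and so sets quercetin and cyanidin against kaempferol and pelargonidin, went against the rest of the branch in *exg1-1*. It had 31.0, 47.2 and 41.3 scaled reads, log2 fold changes of 0.61 (interval 0.24 to 0.98) and 0.41 (0.03 to 0.80). It was the 1 gene of the 29 at least 1.5-fold higher in *exg1-1*, and under library totals or upper quartile scaling it was no longer past that fold. Flavonol synthase followed *CHS*: *FLS1* (AT5G08640) had 232, 189.7 and 312 scaled reads, log2 fold changes of −0.29 (−0.44 to −0.14) and 0.43 (0.29 to 0.56). *UGT78D2* (AT5G17050), which glucosylates flavonols and anthocyanidins, had 254, 215 and 227.

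The anthocyanin steps held the largest differences. *DFR* (AT5G42800), dihydroflavonol reductase, which opens the route to anthocyanins and to the proanthocyanidins of the seed coat, had 49.8 scaled reads in Col-0, against 13.4 in *exg1-1* and 42.5 in *rlp44-3*. Its log2 fold change was −1.89 in *exg1-1* (interval −2.38 to −1.43) and −0.23 in *rlp44-3* (−0.56 to 0.10), and in *exg1-1* it ranked 85 from the lowest of the 19454 kept genes. *LDOX* (AT4G22880), anthocyanidin synthase, had 58.6, 22.2 and 39.3 scaled reads, −1.40 (−1.79 to −1.02) and −0.57 (−0.90 to −0.25). *DFR* was thus low in *exg1-1* and near Col-0 in *rlp44-3*, while *LDOX* lay lowest in *exg1-1* and between the others in *rlp44-3*. *UF3GT* (AT5G54060), a glycosyltransferase that decorates anthocyanins, had 17.4, 4.72 and 10.8, −1.88 (−2.74 to −1.08) and −0.69 (−1.32 to −0.07). Its *exg1-1* value rests on 18.0 fitted reads over 3 libraries, the fewest of the 9 flavonoid enzymes.

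Set against each other, the mutants differed most in this branch. Of the 9 flavonoid enzymes, 8 were lower in *exg1-1* than in *rlp44-3*, against 49.8% of all kept genes. Of these 8, 6 were at least 1.5-fold lower, where 3.98% of all kept genes were lower by that much and 3% higher (6.47% and 4.12% of those with 10 to 100 reads). At 2-fold, *DFR* and *UF3GT* were lower, against 1.06% of all kept genes (0.946% were higher). *DFR* was lower in *exg1-1* by 1.66 on the log2 scale (interval −2.15 to −1.20), and *F3'H* alone was higher, by 0.19 (−0.13 to 0.51). Apart from the scaling and the filter, this comparison does not use the Col-0 libraries that both others share. Of the 18 general and lignin genes, 1, *CCR2*, was at least 1.5-fold lower in *exg1-1* than in *rlp44-3* and 0 were higher.

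*MYB75* (AT1G56650), the anthocyanin activator, had 20.2 scaled reads in Col-0, against 6.93 in *exg1-1* and 7.26 in *rlp44-3*. The log2 fold change was −1.55 in *exg1-1* (interval −2.26 to −0.86) and −1.48 in *rlp44-3* (−2.19 to −0.80), and the mutants differed by −0.07 (−0.90 to 0.76). *MYB75* was thus low in both mutants. The interval between the mutants is wide, since *MYB75* had 27.0 fitted reads over the 3 libraries of *rlp44-3*. Its close paralog *MYB90* (AT1G66390) had 1.08, 1.08 and 3.00 fitted reads summed over 3 libraries, too few for a ratio to be read. The exons of *MYB75* and *MYB90* share identical stretches of at most 42 bases.

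No flavonol activator had a counting interval that excluded no change against Col-0. *MYB12* (AT2G47460) had 33.2, 26.4 and 30.4 scaled reads, log2 fold changes of −0.33 (interval −0.74 to 0.09) and −0.12 (−0.52 to 0.28). *MYB111* (AT5G49330) had 4.27, 3.42 and 4.85, and *MYB11* (AT3G62610) had 3.30, 1.53 and 1.89. Differences of *MYB11* and *MYB111* were not detectable at this depth, with intervals that spanned no change in both mutants.

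**Figure D3:**
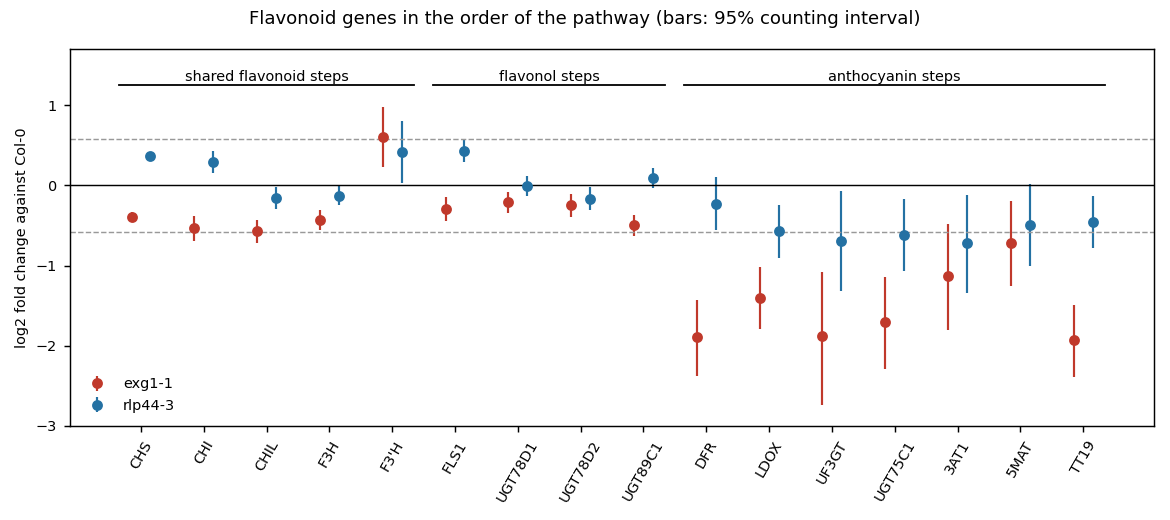
Log2 fold change against Col-0 of 16 flavonoid genes in the order of the pathway, in *exg1-1* (red) and *rlp44-3* (blue), with 95% counting intervals and dashed lines at 1.5-fold. In *exg1-1* all 7 anthocyanin genes lie below the lower dashed line, and in *rlp44-3* *CHS*, *CHI*, *F3'H* and *FLS1* lie above 0.

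Other genes of the pathway came from lists of 75 genes, of which 55 passed the filter. Later anthocyanin genes were low in *exg1-1* too. *TT19* (AT5G17220), a glutathione transferase needed to bring anthocyanin to the vacuole, had 57.0, 14.9 and 41.5 scaled reads, log2 fold changes of −1.93 (interval −2.39 to −1.49) and −0.46 (−0.78 to −0.14). *UGT75C1* (AT4G14090), an anthocyanin glucosyltransferase, had 31.7, 9.72 and 20.7, −1.71 (−2.30 to −1.14) and −0.61 (−1.07 to −0.16). The acyltransferases that decorate anthocyanins followed with smaller changes: *3AT1* (AT1G03940) had −1.14 and −0.72 and *5MAT* (AT3G29590) −0.72 and −0.49. With *SCPL10* (AT2G23000; −0.79 and −0.53), a sinapoyltransferase-like serine carboxypeptidase, 5 of the 11 kept genes in the list of other flavonoid enzymes and transporters were at least 1.5-fold lower in *exg1-1* and 2 in *rlp44-3*, and 0 were past 1.5-fold higher. Of all kept genes 5.3% and 3.15% were lower by that much, and of those with 10 to 100 reads 10.2% and 5.91%. The median over the 11 was −0.57 for *exg1-1* and −0.46 for *rlp44-3* on the log2 scale, and that of all kept genes −0.00 for both. *UGT75C1*, *3AT1*, *SCPL10* and *TT19* overlap a gene on the other strand.

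Over the anthocyanin steps together (*DFR*, *LDOX*, *UF3GT*, *UGT75C1*, *3AT1*, *5MAT* and *TT19*, a grouping made after the values were seen), the summed level was 34.2% of Col-0 in *exg1-1* and 71.3% in *rlp44-3*. Seed genes moved the same way: the 5 seed markers, storage proteins and late seed proteins, were lower in both mutants, with sums of 34.2% (*exg1-1*) and 25.3% (*rlp44-3*) of Col-0. *CRU3*, a seed storage protein gene, had 25.7 scaled reads in Col-0 and in *exg1-1* it had the table's lowest value, at least 32.7-fold lower against a floor of 3 reads over 3 libraries. In *rlp44-3* its log2 fold change was −6.48, from fewer fitted reads than that floor, so the size of this value cannot be read. *CRU3* thus passed the filter through Col-0 alone, so its lower values in the mutants were partly built into the selection. As a sum the seed markers were lower in *rlp44-3* than in *exg1-1*, and 4 of the 5 went that way. *CRU3* went the other way, on too few reads in both mutants to compare. Between the mutants, 1 of the 5 seed intervals excluded no change, so this difference is weakly supported. The anthocyanin genes were lower in *exg1-1*. Of the genes of proanthocyanidin in the seed coat, *BAN* and *TT12* had at most 3 fitted reads in any genotype. *AHA10*, a proton pump gene tied to the same route, passed the filter. Its log2 fold changes were −0.18 in *exg1-1* and −0.56 in *rlp44-3*. The part of seed material in the anthocyanin values was not tested.

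Of the other flavonoid regulators, *MYBL2* (AT1G71030), a small MYB that represses anthocyanin genes, was higher in both mutants, with 893, 1597 and 1319 scaled reads, log2 fold changes of 0.84 (interval 0.77 to 0.90) and 0.56 (0.49 to 0.63), the second short of 1.5-fold. *EGL3* (AT1G63650), a bHLH partner of MYB75, had 79.6, 52.7 and 76.8, a log2 fold change of −0.60 in *exg1-1* (−0.87 to −0.32) that fell short of 1.5-fold, at −0.57, when the scaling used all genes without a filter. Its partner *TTG1*, by contrast, had 328, 377 and 342, and the bHLH *TT8* was too low to compare, with at most 13.0 fitted reads over 3 libraries. *LBD37*, *LBD38* and *LBD39*, which repress anthocyanin genes when nitrogen is plentiful, lay between 0.21 and 0.46 above Col-0 on the log2 scale over both mutants, below the fold used here. *HY5*, the light regulator that binds *CHS*, was level, with 107, 103 and 106.

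Kelch-repeat F-box proteins mark PAL or CHS protein for destruction, and of the 6 lists of other pathway genes theirs had the highest median in both mutants. All 5 were above Col-0 in both, against 49.2% of all kept genes in *exg1-1* and 49.9% in *rlp44-3*. At least 1.5-fold higher were 4 of 5 in each (3.01% of all kept genes in *exg1-1* and 2.07% in *rlp44-3*). The median was 0.85 on the log2 scale for *exg1-1* and 1.31 for *rlp44-3*. *KFB20* (AT1G80440) had 474, 1052 and 1499.8 scaled reads, log2 fold changes of 1.15 (interval 1.06 to 1.24) and 1.66 (1.58 to 1.75). *KFB50* (AT3G59940) had 968, 1794 and 2468, 0.89 (0.83 to 0.95) and 1.35 (1.29 to 1.41). *KFBCHS* (AT1G23390), which targets CHS, had 1544, 2777 and 3569, 0.85 (0.80 to 0.90) and 1.21 (1.16 to 1.26). These 3 genes were thus higher in *rlp44-3* than in *exg1-1*. The other PAL-directed genes were split between the mutants: *KFB39* (AT2G44130) had 169.8, 200.4 and 421 and *KFB01* (AT1G15670) 126, 219 and 146. *KFB39* and *KFB50* overlap a gene on the other strand, and PAL and CHS protein was not measured.

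**Figure D4:**
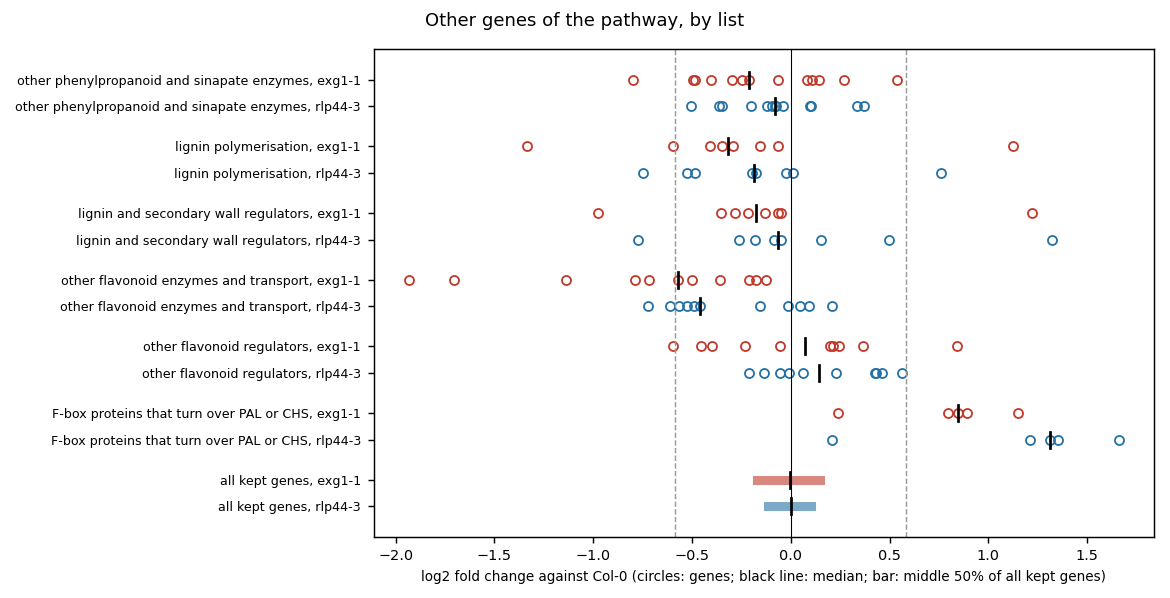
Log2 fold change against Col-0 of the 55 other pathway genes above the filter, by list, in *exg1-1* and *rlp44-3*. Circles are genes, black lines medians, bars the middle 50% of all kept genes and dashed lines 1.5-fold. The F-box genes lie to the right in both mutants, and other flavonoid enzymes lie to the left, farther in *exg1-1*.

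Further lists belong to lignin. In *exg1-1*, 1 of 13 other phenylpropanoid enzymes, 3 of 8 polymerisation genes and 2 of 8 regulators were past 1.5-fold in either direction, and in *rlp44-3* 0, 2 and 2. Of all kept genes 3.01% were past it upward and 5.3% downward in *exg1-1*, and 2.07% and 3.15% in *rlp44-3*. *MYB20* (AT1G66230), a MYB that activates phenylalanine and lignin genes, was higher in both mutants, with 32.8, 76.3 and 82.0 scaled reads, log2 fold changes of 1.22 (interval 0.88 to 1.56) and 1.32 (0.99 to 1.67). *MYB61* (AT1G09540) had 16.5, 8.38 and 9.65, −0.98 (−1.67 to −0.31) and −0.77 (−1.44 to −0.12). *MYB61* did not pass the filter through *exg1-1*, so a lower value there was partly built into the selection. The other 6 kept regulators of lignin and secondary walls, *MYB46* and *MYB63* among them, lay within 1.5-fold in both, and *SND1* and *NST2* had no value in the table. Of the enzymes beside the members, *4CL5* (AT3G21230) had 71.4, 41.0 and 67.6, a log2 fold change of −0.80 in *exg1-1* (−1.11 to −0.49).

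Of the 8 kept genes that polymerise monolignols, 7 were lower in *exg1-1* and 6 in *rlp44-3*, while *PRX71* and *PRX25* each pointed in opposite directions in the mutants. Of all kept genes, 50.8% were lower by any amount in *exg1-1* and 50.1% in *rlp44-3*. *PRX71* (AT5G64120), a wall peroxidase, had 642, 1399 and 567 scaled reads, log2 fold changes of 1.12 (interval 1.05 to 1.20) and −0.18 (−0.27 to −0.09). *PRX25* (AT2G41480) had 15.6, 6.19 and 26.4, −1.34 (−2.11 to −0.59) and 0.76 (0.24 to 1.29). With 7.86 fitted reads per library it did not pass the filter through *exg1-1*, so its lower value there was partly built into the selection. *PRX64* (AT5G42180), a peroxidase of the Casparian strip, had 151, 100.2 and 132, −0.59 (−0.79 to −0.39) and −0.20 (−0.38 to −0.01). Without the filter the *PRX64* value in *exg1-1* was −0.57, short of 1.5-fold. Of the 4 root markers, 3 were lower in *exg1-1* as well. *CASP1*, of the Casparian strip, was at −0.38 (−0.53 to −0.22) and *COBL9*, of root hairs, at −0.59 (−0.97 to −0.21). *PYK10* was at −0.12, and *PHT1;1* lay at 0.02, on the other side. The part of root tissue in the *PRX64* value was not tested. Of the xylem laccases 1 of 3 was past 1.5-fold in *rlp44-3*: *LAC11* (AT5G03260) had 134, 109 and 79.5, −0.75 (−0.97 to −0.53) in *rlp44-3*, while *LAC4* and *LAC17*, at −0.52 and −0.48, were not. The 5 xylem markers, cellulose synthases and proteases of the vessel, reached 105% of their Col-0 sum in *exg1-1*. There 4 lay above Col-0 and 1 below, from −0.21 to 0.31 on the log2 scale. In *rlp44-3* all 5 lay below Col-0, at −0.33 to −0.11 on the log2 scale and so none past 1.5-fold, and the sum was 83.7%. The 3 laccases and the xylem markers thus lay below Col-0 together in *rlp44-3*, and the part of xylem tissue in the laccase values was not tested. *LAC11*, *LAC17*, *PRX64* and *4CL5* overlap a gene on the other strand.

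The labels were checked on the mutated genes. *EXG1* had 943, 308 and 854 scaled reads, and *RLP44* had 34.0, 27.5 and 0.29. Leaf markers summed to 108% and 107% of Col-0 and root markers to 92.2% and 105% in *exg1-1* and *rlp44-3*, and no marker of either was at 0. The root sum is mostly *PYK10*, and 3 of the 4 root markers in *exg1-1* had intervals below 0, as did 3740 of the 19454 kept genes.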

How the data were processed

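The authors prepared directional libraries from polyadenylated RNA, used fastp to trim, HISAT2 to map to TAIR10, and HTSeq-count to count. Not given in the sources used here were tool versions, use of strand and treatment of reads with several matches. The deposited table, called raw counts by the authors, is treated here as a score on the scale of reads: of its 33341 rows 25717 had values, none was whole within 1e-06, and the 3 columns of a genotype were proportional, with a largest relative deviation of 9.55e-15. How they were made was not stated. 3 further columns were not used. Columns summed to between 8364383 and 9606982 reads for Col-0, 10396228 and 12971468 for *exg1-1* and 11015026 and 11535985 for *rlp44-3*, which stand in for depth and set the counting precision.

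The count tests planned in case the columns were counts could not be run. The 3 columns of a genotype were summed, and genotypes were scaled by the trimmed mean of M values (TMM, trimming 30% of log ratios and 5% of levels at each end), with log2 scales of 0.34 for *exg1-1* and 0.31 for *rlp44-3*. Kept genes had, in every library of 1 genotype or more, at least 0.908 CPM (10 reads at the median depth), and 15 reads in all. Log2 fold changes have exact conditional binomial intervals, and levels exact Poisson intervals, at 95%. Folds against genes at the table's lowest value used a floor of 3 reads over 3 libraries. The scaling was tried on simulated counts with known changes. The intervals were tried only on simulated Poisson counts without change, which hold no spread between samples. How the intervals hold for fitted values was therefore not tested. Alternatives were library totals, RLE and upper quartile scaling, organelle genes left out, no filter, 10 reads in every library and a fold of 2.

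All 32 members were named. Other pathway genes were named if kept, at least 1.5-fold changed in either mutant and with an interval off 0. Others named with them (*TTG1*, *TT8*, *HY5*, the LBD genes, *LAC4*, *LAC17*, *BAN*, *TT12*, *AHA10*, *MYB46*, *MYB63*, *SND1*, *NST2*, *CRU3*, *CASP1*, *COBL9*, *PYK10*, *PHT1;1*) were chosen after their values were seen. Members and lists were chosen with earlier results of these data known. Exon lengths, strands, overlaps and upstream windows came from RefSeq TAIR10.1, which held 25487 of the 25717 genes. The software was Python 3.11.15, numpy 2.4.6, pandas 2.3.3, scipy 1.17.1 and, for figures, matplotlib 3.10.9.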

Additional observations from a re-analysis of the deposited data

How the results depend on the processing

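No paired analysis was possible because within a genotype the 3 columns were proportional, and for the same reason leaving out single replicates could not change a ratio and was not run, nor were edgeR and DESeq2, which need counts. RLE scaling and leaving organelle genes out of the scaling changed none of the counts or medians beyond the counting interval. Library totals moved 12 values of single genes outside their counting intervals, while 113 stayed inside. Upper quartile scaling moved 2, while 123 stayed inside. With library totals the log2 ratio of *CHS* between the mutants was −0.82, outside its interval of −0.80 to −0.71. The gene at least 1.5-fold higher in *exg1-1*, *F3'H*, was lost with library totals, upper quartile scaling and a fold of 2, each leaving 0 genes. A fold of 2 left 1 gene lower in *rlp44-3*, *MYB75*. Asking for 10 reads in every library removed *UF3GT* and *MYB75*, which left 3 members lower in *exg1-1* and 0 in *rlp44-3*, and the log2 median of the flavonoid enzymes in *rlp44-3*, −0.13 otherwise, became 0.083. Without a filter *MYB90* added 1 higher gene in *rlp44-3*, and *MYB11* brought the lower members to 6 in *exg1-1* and 3 in *rlp44-3*, while *EGL3* and *PRX64* (both −0.57 in *exg1-1*) fell short of 1.5-fold. The median of the MYB regulators, which rests on 2 kept genes at −0.94 in *exg1-1* and −0.80 in *rlp44-3*, was −0.31 and −0.11 without a filter and −0.33 and −0.13 with 10 reads in every library, where it is *MYB12* alone. The fold changes of *DFR* in *exg1-1* lay between −1.94 and −1.87 over all scalings and filters. No alternative turned the direction of a gene past 1.5-fold. Depth limits *MYB90*, *MYB11* and *MYB111* most, and the absence of replicate spread limits every value.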
